A study of Mus musculus with 15 samples.

Results

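Photoreceptor and retinal neuron genes were followed in endothelial cells purified from the mouse retina. The list holds 35 gene symbols of rods, cones and other retinal neurons, chosen by symbol. Of these, 33 had a probe set on the array under that symbol, out of 18194 genes measured in all, and Nr2e3 and Cnga3 had none. The 33 genes comprised 9 of rods, 9 of cones, 12 used by both, and 3 transcription factors of other retinal neurons. They were covered by 50 probe sets, and 13 genes had more than 1.

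The study compared mice lacking the receptor Frizzled4 (Fz4 KO, labelled Fz4-/-), the coreceptor Lrp5 (Lrp5 KO, labelled Lrp5-/-) or the ligand Norrin (Norrin KO) with wild-type mice. There were 3, 3 and 3 mutant arrays and 6 wild-type arrays. All mice were adults of both sexes, per the labels, on a C57Bl6/129 mixed background, and each array held RNA of cells from 5 to 10 pooled mice, captured on beads carrying an antibody to PECAM, a surface protein of endothelial cells. The labels name no promoter, Cre line or inducing agent, so each gene is taken as missing from every cell of the mouse, neural retina included.

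Rods and cones turn light into an electrical signal through a cascade of visual pigment, transducin (a G protein), a cGMP phosphodiesterase and a cGMP-gated channel. Most of the cascade exists in a rod and a cone version encoded by different genes, while structural, calcium-sensing and retinoid-handling genes are often shared. Photoreceptors are the most numerous neurons of the mouse retina and lie in a layer without blood vessels of its own. Norrin, acting through Frizzled4 and Lrp5, directs growth of the retinal vessels, and mice lacking any of these genes have a poorly vascularised retina.

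Endothelial markers were high on all arrays. Pecam1 had a log2 signal of 11.72 to 11.83 in Fz4 KO, 11.60 to 11.94 in Lrp5 KO, 10.91 to 11.88 in Norrin KO and 11.29 to 11.80 in wild type. Fzd4, which encodes Frizzled4, stood at 3.98 to 4.56 in Fz4 KO against 11.80 to 12.27 in wild type, and Lrp5 at 4.40 to 5.25 in Lrp5 KO against 7.22 to 7.95 in wild type. Ndp, which encodes Norrin, was low everywhere (3.88 to 4.35 in Norrin KO and 4.28 to 4.81 in wild type), so it does not check the Norrin KO label. The highest values on the second principal component were those of Lrp5 KO 1 (77.4), wild type 4 (34.0) and Lrp5 KO 3 (29.2), and the lowest was that of wild type 5 (-29.5). The gap between 3′ and 5′ actin control signals, a sign of RNA integrity, was 1.05 to 2.92 in Norrin KO and 0.56 to 1.04 on the other 12 arrays. The female-specific RNA Xist was at 4.12 to 4.98 in Norrin KO, where the Y-linked Eif2s3y was at 9.77 to 10.32 on all arrays. Arrays with 1 of these RNAs low also occurred in the other genotypes: Xist was at 4.76 to 5.99 on Lrp5 KO 1 and 2 and wild type 4 and 5, and Eif2s3y at 2.69 to 3.25 on Fz4 KO 3, Lrp5 KO 3 and wild type 3 and 6. The labelled mix of sexes is therefore not borne out on these arrays. The members Arr3 and Opn1mw are X-linked. Lrp5 KO 1, 2 and 3 resembled wild type 4, 5 and 6 in order: their Xist and Eif2s3y followed the same pattern, their spike control deviations were 0.56, -0.39 and -0.17 in Lrp5 KO against 0.55, -0.40 and -0.15 in wild type, and their deviations over all genes correlated at 0.653, 0.511 and 0.293 in that order. Fz4 KO 1, 2 and 3 correlated with wild type 1, 2 and 3 at 0.276, 0.299 and 0.337, and the Norrin KO arrays with either set at -0.151 to 0.032. The labels name no such pairs, so results for Fz4 KO and Lrp5 KO are also given with these matched arrays as a block where it changes a call. Each genotype had few arrays, which limits the precision of every value below.

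Transcripts of the neural retina were measurable in every group. The signals lay above the median of all probe sets on each of the 15 arrays for 5 members (Gnat1, Sag, Pde6h, Pdc and Rom1). For 4 members, Pde6a, Cngb3, Prph2 and Tulp1, they lay below it on every array, and 24 were in between. In such bulk samples, photoreceptor number in the retina, photoreceptor share of the captured fraction and RNA per photoreceptor cannot be told apart.

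Few members differed between the mean of the mutants and wild type. In limma with Benjamini-Hochberg adjustment over all genes, at an adjusted p of 0.05, 4 of the 33 members were higher and 1 was lower in the mean of the mutants. Over all genes, 14.0% were higher and 9.91% lower, so the members were called no more often than genes in general. The 4 that rose were the rod gene Gnat1, the cone genes Gngt2 and Pde6h, and Rdh12. The 1 that fell was Isl1. The median log2 difference (mutant minus wild type, where 1 is a 2-fold change) was 0.60 for the 9 rod genes, 0.41 for the 9 cone genes, 0.38 for the 12 shared genes and -0.68 for the other 3, against -0.01 for all genes. Of the 33 members, 26 had a positive difference. Without Norrin KO 3, 12 members were higher, 6 of them rod genes, and none was lower. This count is the top of the range of 4 to 12 on leaving out each array in turn. The array was singled out after its values were seen. The shares of all genes above do not belong to that fit.

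**Figure D1:**
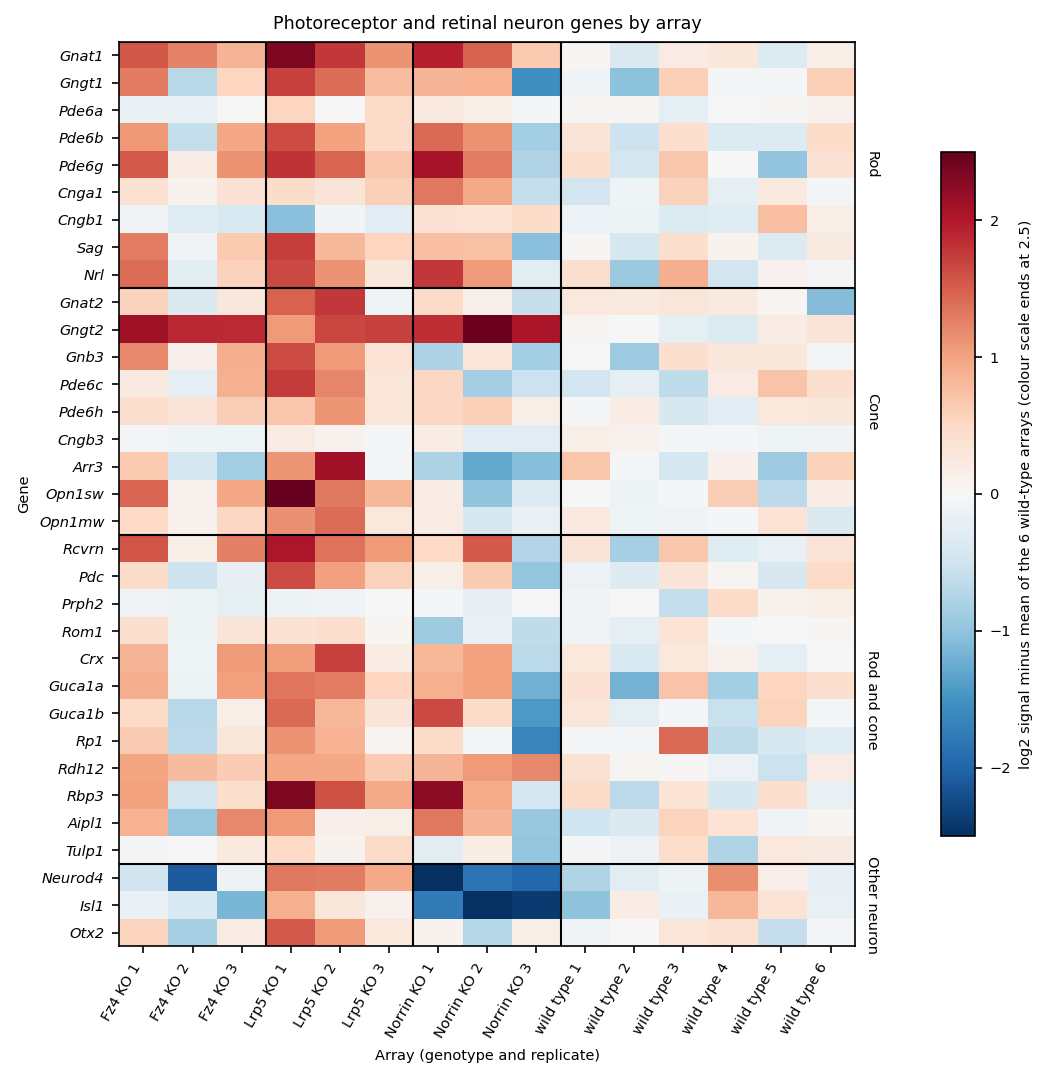
Signal of each of the 33 genes (rows, by class) on each of the 15 arrays (columns, mutants left of wild type), as the log2 signal minus the mean of the 6 wild-type arrays, with red for higher and blue for lower. Gnat1, Gngt2 and Rdh12 are above the wild-type mean on all 9 mutant arrays, most other rows are pale or blue on Fz4 KO 2 and Norrin KO 3, and Neurod4 and Isl1 are lowest in Norrin KO.

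Gnat1 encodes the alpha subunit of rod transducin. Its log2 signal was 9.20, 8.88 and 8.50 on the Fz4 KO arrays, 9.98, 9.42 and 8.77 on the Lrp5 KO arrays, 9.59, 9.11 and 8.30 on the Norrin KO arrays, and 7.28 to 7.92 (median 7.76) in wild type. Every mutant array lay above every wild-type array. The log2 difference was 1.21 ± 0.29 (SE) in Fz4 KO, 1.74 ± 0.29 in Lrp5 KO and 1.35 ± 0.29 in Norrin KO, with limma adjusted p of 0.00981, 0.00101 and 0.00361 in that order. Without Fz4 KO 1 the Fz4 KO difference was 1.04 and missed the threshold (adjusted p = 0.0644).

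Gngt2, the gamma subunit of cone transducin, had the largest rise of the members in the mean of the mutants. It read 7.95, 7.72 and 7.70 on the Fz4 KO arrays, 6.89, 7.50 and 7.53 on the Lrp5 KO arrays, 7.68, 8.28 and 7.86 on the Norrin KO arrays, and 5.48 to 6.16 (median 5.87) in wild type. The groups were again fully separate, and the array with the lowest Gngt2 among the mutants, Lrp5 KO 1, was the one with the highest Gnat1. The log2 differences were 1.96 ± 0.19 in Fz4 KO, 1.48 ± 0.19 in Lrp5 KO and 2.11 ± 0.19 in Norrin KO, with limma adjusted p of 4.76e-06, 0.000104 and 2.16e-06 in that order. The median difference of the 9 cone genes, Gngt2 included, was 0.37 in Fz4 KO, 1.05 in Lrp5 KO and -0.13 in Norrin KO. Which cells gave the Gngt2 signal was not tested.

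Rdh12, a retinol dehydrogenase of photoreceptor inner segments, read 6.63, 6.44 and 6.29 on the Fz4 KO arrays, 6.62, 6.61 and 6.31 on the Lrp5 KO arrays, 6.51, 6.71 and 6.85 on the Norrin KO arrays, and 5.12 to 6.03 (median 5.70) in wild type. All 9 mutant arrays were above all 6 wild-type arrays. The log2 differences were 0.80 ± 0.18 in Fz4 KO, 0.86 ± 0.18 in Lrp5 KO and 1.04 ± 0.18 in Norrin KO, with limma adjusted p of 0.00534, 0.00447 and 0.000638 in that order. A second Rdh12 probe set gave smaller differences that missed the threshold, 0.38 in Fz4 KO, 0.52 in Lrp5 KO and 0.21 in Norrin KO, and its mutant arrays (4.70 to 5.65) overlapped the wild-type arrays (4.61 to 5.50). The 2 probe sets of this gene therefore disagree on the call. The Fz4 KO call of Rdh12 was lost with matched arrays as a block (0.65, limma adjusted p = 0.0568), and the Lrp5 KO call without Lrp5 KO 1, Lrp5 KO 3 and wild type 4 (0.93, adjusted p = 0.111).

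Gnat1, Gngt2 and Rdh12 were the members whose 9 mutant arrays all exceeded the 6 wild-type arrays, and 4.76% of all genes did so. No member was lower on all mutant arrays, against 3.53% of all genes.

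**Figure D2:**
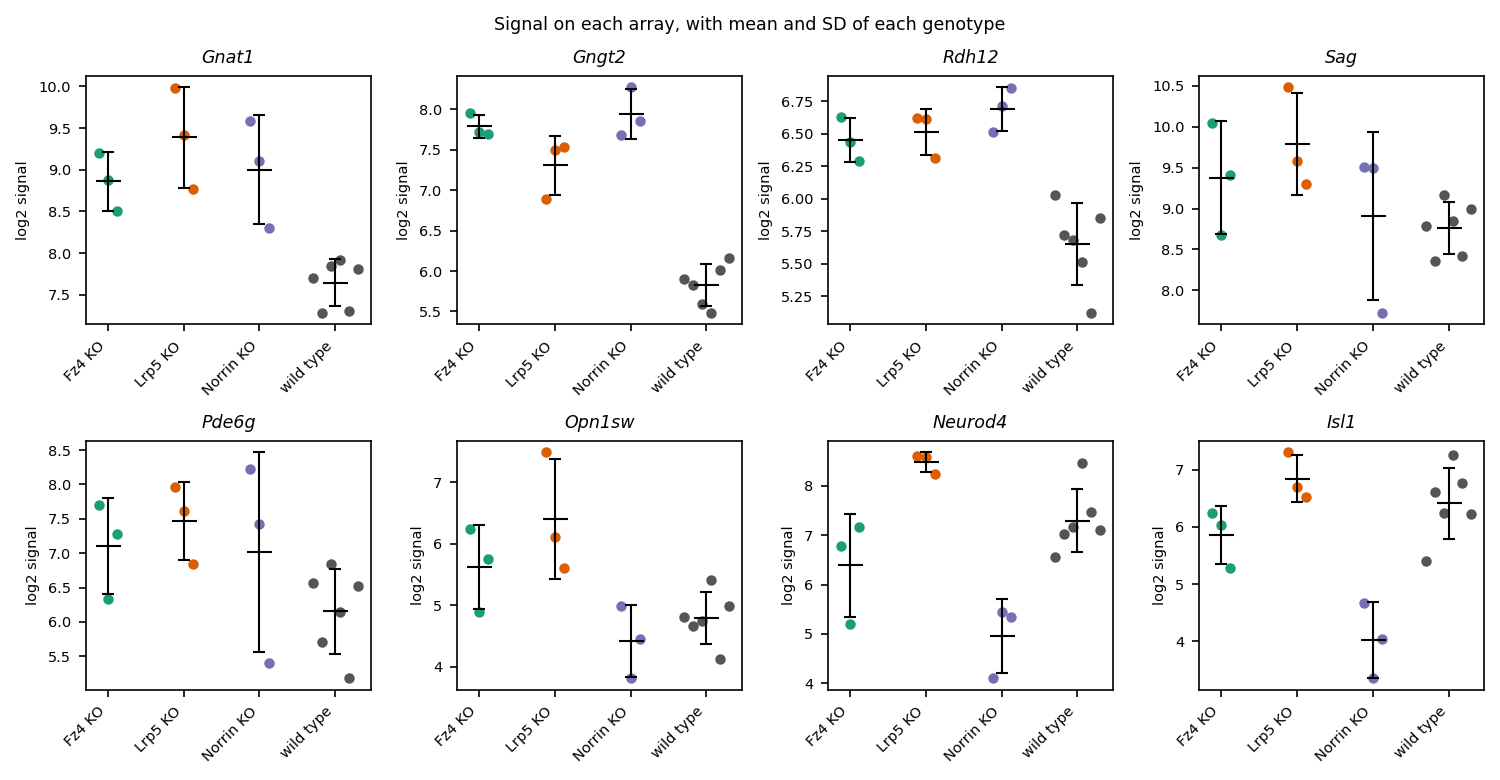
Log2 signal (vertical axes) of 8 members on each array (points), by genotype, with the mutants left of wild type, the mean as a horizontal bar and the SD as the error bar. Gnat1, Gngt2 and Rdh12 show no overlap between mutants and wild type, Sag and Pde6g spread widely within each mutant, and Neurod4 and Isl1 are lowest in Norrin KO.

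No other rod gene passed the test in any mutant. Sag, which encodes rod arrestin, read 10.05, 8.67 and 9.41 on the Fz4 KO arrays, 10.49, 9.58 and 9.30 on the Lrp5 KO arrays, 9.51, 9.50 and 7.72 on the Norrin KO arrays, and 8.36 to 9.17 (median 8.82) in wild type. Lrp5 KO was above wild type throughout, Fz4 KO and Norrin KO overlapped it, and Norrin KO 3 was below every wild-type array. The log2 difference was 0.61 ± 0.40 in Fz4 KO, 1.03 ± 0.40 in Lrp5 KO and 0.14 ± 0.40 in Norrin KO, with limma adjusted p of 0.345, 0.120 and 0.824 in that order.

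Pde6g, the inhibitory subunit of rod phosphodiesterase, read 7.70, 6.34 and 7.28 on the Fz4 KO arrays, 7.96, 7.61 and 6.84 on the Lrp5 KO arrays, 8.22, 7.43 and 5.40 on the Norrin KO arrays, and 5.18 to 6.84 (median 6.33) in wild type. Pde6b, a catalytic subunit of that enzyme, read 6.49, 4.81 and 6.36 on the Fz4 KO arrays, 7.03, 6.41 and 5.87 on the Lrp5 KO arrays, 6.82, 6.51 and 4.55 on the Norrin KO arrays, and 4.88 to 5.85 (median 5.39) in wild type. In both genes Fz4 KO 2 and Norrin KO 3 were the low mutant arrays. Norrin KO 1 and Norrin KO 2 exceeded all wild-type arrays in both genes. The gamma subunit of rod transducin, Gngt1, and the rod transcription factor Nrl had the same low arrays. The channel subunit Cngb1 had differences of -0.25 in Fz4 KO, -0.46 in Lrp5 KO and 0.39 in Norrin KO, none past the test.

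Spread within the mutants was largely shared by the members. Fz4 KO 2 was the lowest Fz4 KO array for 25 of 33 members (75.8%, against 36.5% of all genes) and Norrin KO 3 the lowest Norrin KO array for 21 (63.6%, against 29.2%). For 19 members (57.6%) both held, against 10.9% of all genes. In Lrp5 KO, array 1 was highest for 23 members (69.7%, against 30.7% of all genes) and array 3 lowest for 26 (78.8%, against 23.1%). These arrays were picked after their values were seen, and members of 1 array share its RNA, so the counts describe the arrays and no test was run. Gngt2, Rdh12, Cngb1, Arr3, Prph2 and Isl1 had neither Fz4 KO 2 nor Norrin KO 3 as their lowest array.

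The homeodomain factor Crx activates rod and cone genes through sites that contain TAATCC, and Otx2 recognises the same core. Crx itself read 5.11, 4.15 and 5.32 on the Fz4 KO arrays, 5.31, 5.96 and 4.45 on the Lrp5 KO arrays, 5.09, 5.26 and 3.58 on the Norrin KO arrays, and 3.88 to 4.52 (median 4.30) in wild type. Its low mutant arrays were Fz4 KO 2, Lrp5 KO 3 and Norrin KO 3, as for many members, and it passed the test in no mutant. The core (TAATCC or its reverse complement GGATTA, searched on both strands, from 250 bases before to 50 after the gene start) was present in 11 of the 23 members with a RefSeq promoter sequence on GRCm38.p6 (47.8%), against 8.14% of all genes with one. A match is only these letters in this window. Of the members with a promoter, 8 of the 12 that were lowest on both Fz4 KO 2 and Norrin KO 3 held the core, as did 1 of the 6 lowest on 1 of these arrays and 2 of the 5 lowest on neither. These arrays were picked after their values were seen, and whether the core has a part in the shared low arrays was not tested. Gnat1 and Gngt2 were among the members without a promoter sequence here.

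Promoters are shown for members with and without the core on either side of that split. Sag and Gnat2 hold it and were low on Fz4 KO 2 and Norrin KO 3, and Nrl was low on the same arrays without a match, as were Pde6b, Pdc and Pde6h. Cngb1 holds it and was not lowest on these arrays, which was also so of Isl1, and Rdh12, which was higher on all mutant arrays, has no match. Capitals mark the core, whose first base lies at -87 relative to the gene start in Sag, -19 in Gnat2, and both -58 and -25 in Cngb1. The windows are chr1:87803430-87803729 (Sag), chr3:108092816-108093115 (Gnat2) and chr12:79208663-79208962 (Rdh12) on the plus strand, and chr14:55524203-55524502 (Nrl) and chr8:95306536-95306835 (Cngb1) on the minus strand.
Sag: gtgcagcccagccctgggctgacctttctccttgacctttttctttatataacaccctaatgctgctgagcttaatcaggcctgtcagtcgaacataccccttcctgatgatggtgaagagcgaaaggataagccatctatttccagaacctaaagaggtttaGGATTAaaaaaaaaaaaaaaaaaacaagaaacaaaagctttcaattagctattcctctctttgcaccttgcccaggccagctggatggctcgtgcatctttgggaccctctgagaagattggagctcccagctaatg
Gnat2: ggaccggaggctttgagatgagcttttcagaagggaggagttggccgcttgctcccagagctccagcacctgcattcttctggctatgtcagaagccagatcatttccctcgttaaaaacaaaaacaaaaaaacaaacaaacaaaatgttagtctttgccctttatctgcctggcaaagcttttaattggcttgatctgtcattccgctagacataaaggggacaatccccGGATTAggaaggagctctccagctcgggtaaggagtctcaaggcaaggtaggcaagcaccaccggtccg
Nrl: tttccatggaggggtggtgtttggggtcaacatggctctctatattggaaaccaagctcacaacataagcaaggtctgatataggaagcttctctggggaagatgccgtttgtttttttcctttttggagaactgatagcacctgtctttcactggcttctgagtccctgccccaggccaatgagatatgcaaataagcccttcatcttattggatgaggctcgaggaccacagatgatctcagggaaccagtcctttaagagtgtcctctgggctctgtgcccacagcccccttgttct
Cngb1: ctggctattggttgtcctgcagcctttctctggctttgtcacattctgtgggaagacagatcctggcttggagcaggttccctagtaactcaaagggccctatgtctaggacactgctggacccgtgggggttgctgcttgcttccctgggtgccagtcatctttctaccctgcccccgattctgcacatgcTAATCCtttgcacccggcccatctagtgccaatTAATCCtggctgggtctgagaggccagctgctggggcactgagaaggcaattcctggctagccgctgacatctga
Rdh12: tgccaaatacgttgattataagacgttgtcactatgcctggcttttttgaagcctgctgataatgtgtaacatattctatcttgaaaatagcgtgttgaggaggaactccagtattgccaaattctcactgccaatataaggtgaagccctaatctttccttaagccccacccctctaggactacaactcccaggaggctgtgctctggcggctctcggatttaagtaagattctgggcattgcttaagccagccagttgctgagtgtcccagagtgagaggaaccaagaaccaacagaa

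Class by class, the median deviation of the rod genes from the wild-type mean was 1.29, -0.17 and 0.58 on Fz4 KO 1 to 3, 1.64, 1.02 and 0.53 on Lrp5 KO 1 to 3, 1.32, 0.94 and -0.59 on Norrin KO 1 to 3, and -0.40 to 0.41 on the wild-type arrays. The cone genes gave 0.57, 0.08 and 0.62 on the Fz4 KO arrays, 1.14, 1.32 and 0.30 on the Lrp5 KO arrays, 0.20, -0.28 and -0.34 on the Norrin KO arrays, and -0.08 to 0.19 in wild type. Lrp5 KO was thus high for both classes, and on Norrin KO 1 and 2 the rod genes were high and the cone genes near or below wild type. Markers of Müller glia, the main glial cell of the retina, moved with these arrays in part, with medians of 0.70, -0.35 and 0.18 on the Fz4 KO arrays, 0.76, 0.31 and 0.18 on the Lrp5 KO arrays, -0.23, -0.32 and -0.38 on the Norrin KO arrays, and -0.47 to 0.68 in wild type. Fz4 KO 2 was the lowest of its group for 9 of the 10 glial markers and Lrp5 KO 1 the highest for 9. The 12 endothelial markers had medians between -0.22 and 0.22 on all 15 arrays, but single markers moved in both directions. In the mean of the mutants 3 were higher and 5 lower, with differences of -1.38 to 0.82. Over all genes, 14.0% were higher and 9.91% lower. The part of glial RNA and array quality in these results was not tested.

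**Figure D3:**
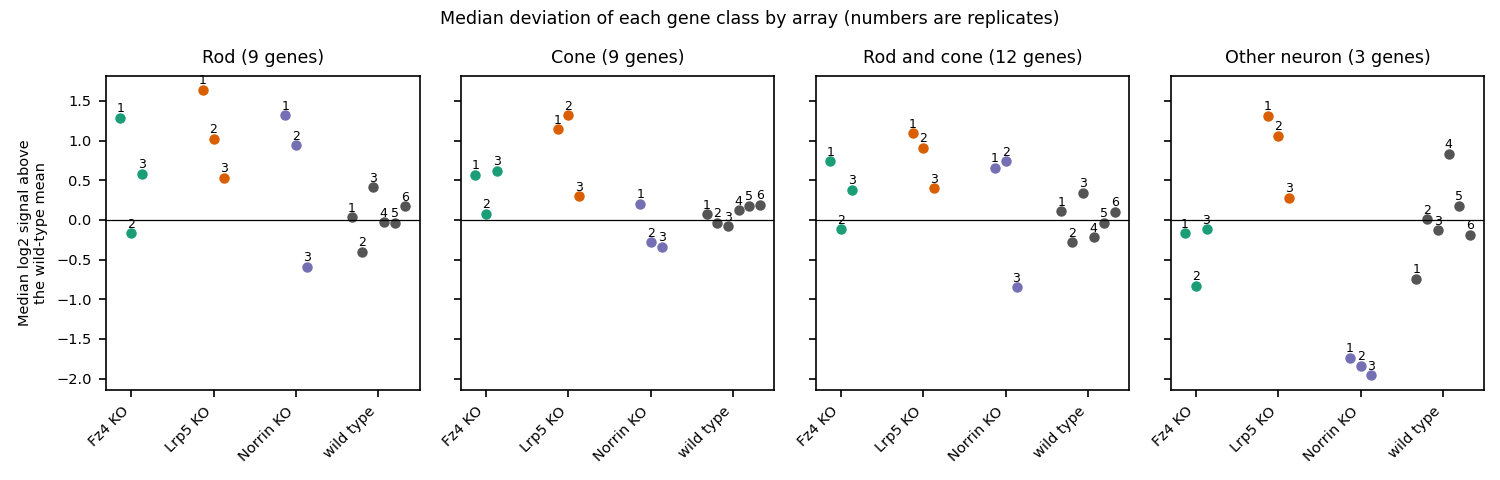
Median over the genes of each class of the log2 signal above the wild-type mean (vertical axis), 1 point for each array, numbered by replicate, with the mutants left of wild type. Rod genes range from -0.59 to 1.64 on mutant arrays and from -0.40 to 0.41 on wild-type arrays, and the 3 other neuron genes are at -1.96 to -1.74 in Norrin KO.

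In Lrp5 KO more members were higher than in the other mutants. Against wild type, 8 of 33 members were higher in Lrp5 KO (5.63% of all genes) and none was lower (7.27% of all genes). They were Gnat1, Gngt2, Pde6h, the cone opsins Opn1sw and Opn1mw, Rcvrn, Rdh12 and Rbp3. In Fz4 KO, 3 members were higher (10.7% of all genes) and none lower (6.08%), and in Norrin KO, 3 were higher (16.7% of all genes) and 3 lower (9.13%). The median difference over the members was 1.01 in Lrp5 KO, 0.32 in Fz4 KO and 0.12 in Norrin KO, where all genes had -0.02, -0.03 and 0.04. These comparisons share the 6 wild-type arrays. The shares of all genes above belong to the fit of all arrays. They are not given for the fits that follow, so those counts describe the members only. The Lrp5 KO count was 3 without Lrp5 KO 1, 5 without Lrp5 KO 2, 13 without Lrp5 KO 3 and 5 without wild type 1. It was 3 without the 3 arrays highest on the second principal component (Lrp5 KO 1, Lrp5 KO 3 and wild type 4). Against wild type 4 to 6 alone, with no pairing, it was also 3 (Gnat1, Gngt2 and Rdh12). With the matched arrays as a block it was 11, of which 10 were higher: Pde6h was not past the threshold (0.62, limma adjusted p = 0.118), Pde6g, Gnat2 and Gnb3 were added as higher (1.53, 1.31 and 0.85), and Cngb1 was lower (-0.67, adjusted p = 0.0120).

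Opn1sw, the short-wavelength opsin, read 6.24, 4.89 and 5.75 on the Fz4 KO arrays, 7.49, 6.11 and 5.61 on the Lrp5 KO arrays, 4.98, 3.81 and 4.45 on the Norrin KO arrays, and 4.13 to 5.41 (median 4.78) in wild type. Opn1mw, the medium-wavelength opsin, read 5.27, 4.86 and 5.30 on the Fz4 KO arrays, 5.91, 6.18 and 5.03 on the Lrp5 KO arrays, 4.97, 4.38 and 4.61 on the Norrin KO arrays, and 4.41 to 5.12 (median 4.72) in wild type. Lrp5 KO lay above wild type throughout for Opn1sw, while for Opn1mw Lrp5 KO 3 was inside the wild-type range. The Lrp5 KO difference was 1.61 ± 0.40 for Opn1sw (limma adjusted p = 0.0163) and 0.93 ± 0.23 for Opn1mw (adjusted p = 0.0174). Opn1sw missed the threshold without Lrp5 KO 1 (1.07, adjusted p = 0.115), and Opn1mw without Lrp5 KO 1 (0.82, adjusted p = 0.0910) or Lrp5 KO 2 (0.69, adjusted p = 0.0971). A second Opn1sw probe set had a difference of 0.06 in Lrp5 KO and was not past the test.

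Pde6h, the inhibitory subunit of cone phosphodiesterase, read 6.82, 6.72 and 7.02 on the Fz4 KO arrays, 7.09, 7.51 and 6.71 on the Lrp5 KO arrays, 6.92, 6.99 and 6.56 on the Norrin KO arrays, and 5.99 to 6.68 (median 6.47) in wild type. Only Norrin KO 3 among the mutant arrays fell inside the wild-type range. The log2 difference was 0.45 ± 0.20 in Fz4 KO, 0.71 ± 0.20 in Lrp5 KO and 0.42 ± 0.20 in Norrin KO, with limma adjusted p of 0.142, 0.0291 and 0.132 in that order. For the mean of the mutants it was 0.53 ± 0.15 (limma adjusted p = 0.0167). The Lrp5 KO call was lost without Lrp5 KO 1 (0.71, adjusted p = 0.0872), Lrp5 KO 2 (0.50, adjusted p = 0.152) and also without wild type 1 (0.70, adjusted p = 0.0548). A second Pde6h probe set passed in all mutants, at 1.15 in Fz4 KO, 1.39 in Lrp5 KO and 0.99 in Norrin KO.

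Arr3, the cone arrestin, read 6.33, 5.24 and 4.82 on the Fz4 KO arrays, 6.78, 7.78 and 5.65 on the Lrp5 KO arrays, 4.91, 4.41 and 4.62 on the Norrin KO arrays, and 4.78 to 6.37 (median 5.72) in wild type. Gnat2, the alpha subunit of cone transducin, read 6.10, 5.18 and 5.81 on the Fz4 KO arrays, 7.01, 7.30 and 5.43 on the Lrp5 KO arrays, 6.01, 5.66 and 4.95 on the Norrin KO arrays, and 4.45 to 5.83 (median 5.78) in wild type. For both, Lrp5 KO 1 and 2 were above all wild-type arrays and Lrp5 KO 3 was not. Neither passed the test against wild type in any mutant, with Lrp5 KO differences of 1.05 ± 0.44 for Arr3 (limma adjusted p = 0.151) and 1.05 ± 0.41 for Gnat2 (adjusted p = 0.119). A second Arr3 probe set was past it in Lrp5 KO, at 2.08 (adjusted p = 0.0291). The cone genes Gnb3 (a G protein beta subunit), Pde6c (a phosphodiesterase subunit) and Cngb3 (a channel subunit) also stayed short of the threshold in each mutant. With matched arrays as a block, Gnb3 was higher in Fz4 KO (0.92, limma adjusted p = 0.0257) and in Lrp5 KO (0.85, adjusted p = 0.0375).

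Of the shared photoreceptor genes, Rcvrn, the calcium sensor recoverin, read 7.26, 5.83 and 6.94 on the Fz4 KO arrays, 7.70, 7.04 and 6.74 on the Lrp5 KO arrays, 6.17, 7.21 and 4.95 on the Norrin KO arrays, and 4.85 to 6.36 (median 5.75) in wild type. Rbp3, a retinoid-binding protein of the space around the outer segments, read 7.52, 6.05 and 6.95 on the Fz4 KO arrays, 8.85, 8.11 and 7.46 on the Lrp5 KO arrays, 8.76, 7.44 and 6.10 on the Norrin KO arrays, and 5.86 to 6.99 (median 6.59) in wild type. Lrp5 KO was separate from wild type in both genes, and the other mutants overlapped it. The Lrp5 KO difference was 1.48 ± 0.45 for Rcvrn (limma adjusted p = 0.0459) and 1.62 ± 0.49 for Rbp3 (adjusted p = 0.0443). Each call was lost on leaving out any of 10 of the 15 arrays, with adjusted p up to 0.214 for Rcvrn and 0.225 for Rbp3, both without Lrp5 KO 1. With matched arrays as a block both passed (adjusted p of 0.0132 for Rcvrn and 0.0127 for Rbp3), and with the replicate number as a block neither did (0.188 and 0.0683). The replicate block in effect uses only the wild-type arrays that share a number with mutant arrays, so fewer wild-type arrays enter that comparison. A second Rbp3 probe set had a Lrp5 KO difference in the opposite direction (-0.35 ± 0.33, adjusted p = 0.693), and with the mean of both the difference was 0.64 (adjusted p = 0.225), so the Rbp3 call rests on 1 of 2 probe sets. Beside Lrp5 KO 1, the arrays were for Rcvrn Fz4 KO 3, Lrp5 KO 2 and 3, Norrin KO 1 and wild type 1, 2, 4, 5 and 6, and for Rbp3 Fz4 KO 3, Lrp5 KO 2, Norrin KO 2 and wild type 1 to 6.

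Altogether 11 members had Lrp5 KO arrays above all wild-type arrays (7.78% of all genes) and none had them below (8.95%). In Fz4 KO, 4 members were above (13.9% of all genes) and none below (9.36%), and in Norrin KO, 3 were above (15.8%) and 2 below (9.55%).

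Rom1, a structural protein of outer segment discs, was lower in Norrin KO. It read 7.96, 7.44 and 7.89 on the Fz4 KO arrays, 7.92, 7.98 and 7.62 on the Lrp5 KO arrays, 6.67, 7.38 and 6.92 on the Norrin KO arrays, and 7.31 to 7.90 (median 7.54) in wild type. Norrin KO 2 was inside the wild-type range and the other Norrin KO arrays were below it. The difference of -0.57 ± 0.18 (limma adjusted p = 0.0293) missed the threshold without Norrin KO 1 (-0.41, adjusted p = 0.158) or Norrin KO 3 (-0.54, adjusted p = 0.0900), and with the replicate number as a block (adjusted p = 0.158). That block also reduces the wild-type arrays compared to those sharing a number with mutant arrays.

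**Figure D4:**
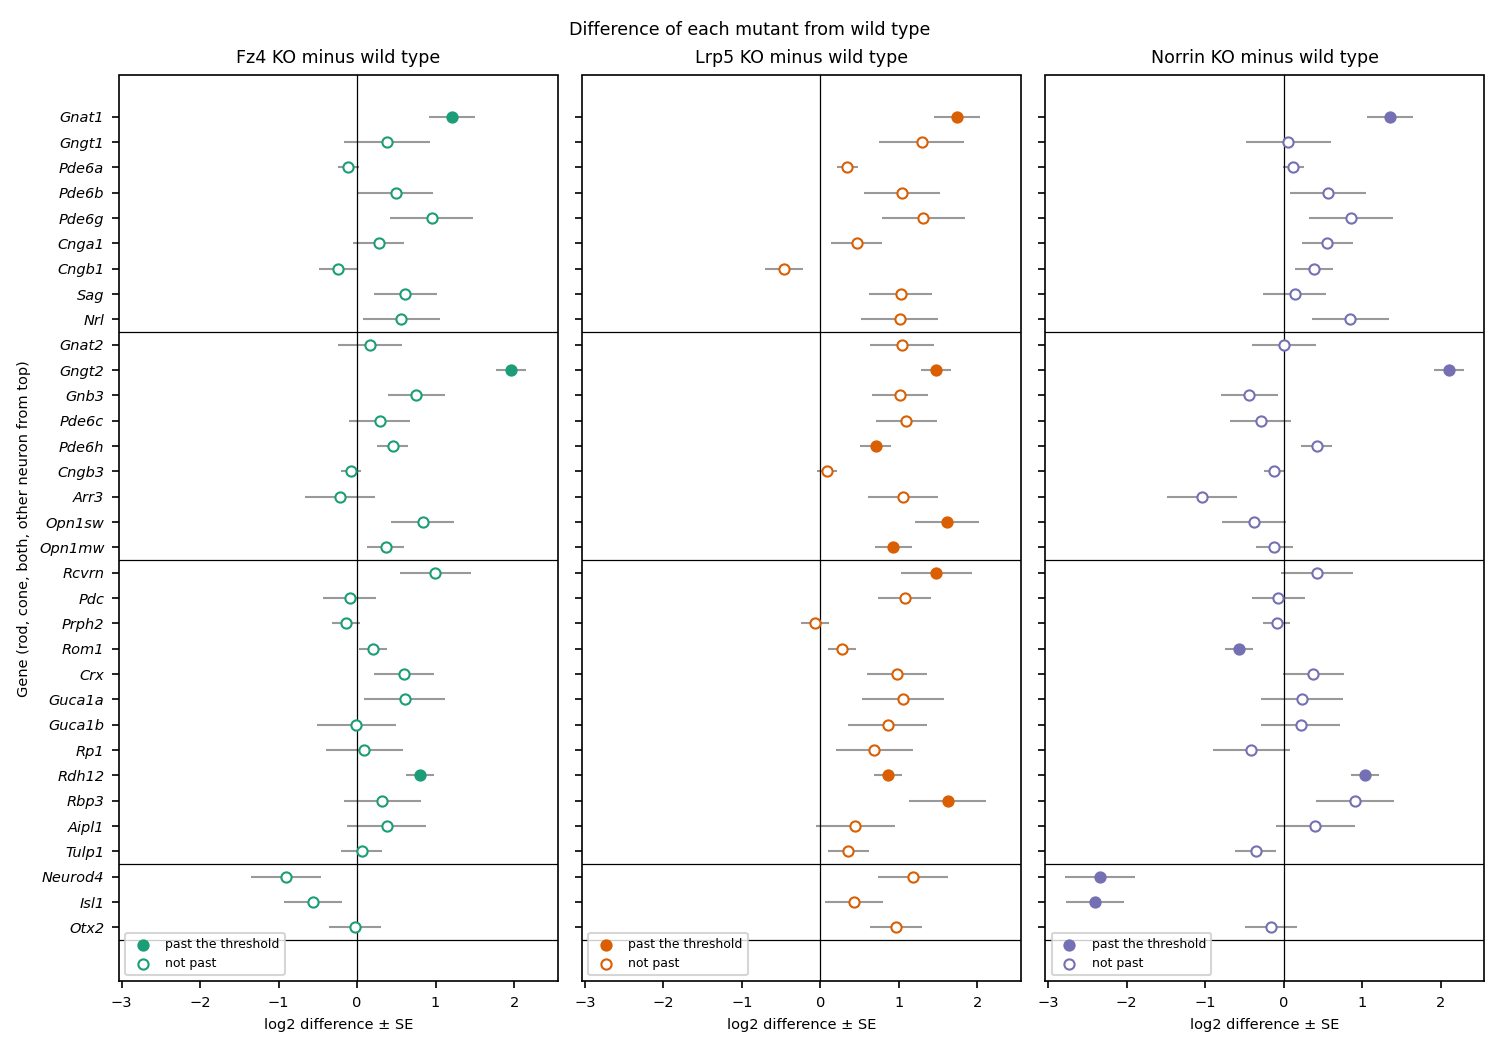
Log2 difference from wild type (horizontal axes, with SE) of the 33 genes in Fz4 KO, Lrp5 KO and Norrin KO, with filled points for those past the adjusted p of 0.05. Filled points number 3 in Fz4 KO, 8 in Lrp5 KO and 6 in Norrin KO, and Gnat1, Gngt2 and Rdh12 are filled in each panel.

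Of the 3 transcription factors of other retinal neurons, 2 were lower in Norrin KO. Neurod4, a bHLH factor of bipolar and amacrine cell development, read 6.79, 5.21 and 7.17 on the Fz4 KO arrays, 8.61, 8.59 and 8.25 on the Lrp5 KO arrays, 4.10, 5.45 and 5.34 on the Norrin KO arrays, and 6.55 to 8.46 (median 7.13) in wild type. Isl1, a LIM homeodomain factor of ganglion, bipolar and amacrine cells, read 6.25, 6.04 and 5.28 on the Fz4 KO arrays, 7.31, 6.70 and 6.52 on the Lrp5 KO arrays, 4.67, 3.35 and 4.03 on the Norrin KO arrays, and 5.40 to 7.25 (median 6.43) in wild type. All Norrin KO arrays were below all wild-type arrays in both genes. Fz4 KO 2 was also below wild type for Neurod4 and Fz4 KO 3 for Isl1, while the other Fz4 KO arrays lay inside the wild-type range and Lrp5 KO overlapped its upper part.

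Against wild type in Norrin KO, Neurod4 fell by 2.33 ± 0.45 (limma adjusted p = 0.00154) and Isl1 by 2.40 ± 0.37 (adjusted p = 0.000292). Each Norrin KO call held on leaving out each of the 15 arrays in turn. A second Neurod4 probe set gave -2.22 and passed, and the remaining one gave -0.26 and did not. A second Isl1 probe set gave -0.29 and did not pass, so the Isl1 call rests on 1 of 2 probe sets. The lower Isl1 in the mean of the mutants (-0.84 ± 0.28, limma adjusted p = 0.0380) missed the threshold when 1 of 9 arrays was left out, namely wild type 2, 4, 5 and 6, Fz4 KO 3, both Lrp5 KO 2 and 3, and Norrin KO 2 and 3, with adjusted p up to 0.0879 (without wild type 4). Otx2, a homeodomain factor of photoreceptors and bipolar cells, read 6.20, 4.80 and 5.82 on the Fz4 KO arrays, 7.18, 6.70 and 5.91 on the Lrp5 KO arrays, 5.73, 4.93 and 5.78 on the Norrin KO arrays, and 5.07 to 6.02 (median 5.61) in wild type. It overlapped wild type in each mutant and passed no test against it.

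Markers of other retinal cells gave mixed values beside the fall of Neurod4 and Isl1. Over all genes, 16.7% were higher and 9.13% lower in Norrin KO. There, 3 of 7 bipolar markers were higher and none lower (median 0.36), and 2 of 9 ganglion cell markers were higher and none lower (median 0.41). The bipolar marker Car8 and the ganglion cell marker Thy1 were above all wild-type arrays in every mutant, not only in Norrin KO. Of 12 amacrine and horizontal cell markers 1 was higher and 1 lower (median -0.20). Of 10 Müller glia markers 1 was higher and 2 lower (median -0.33). Rlbp1, a retinoid-binding protein of these glia, was at 8.17 to 9.03 in Norrin KO and 10.00 to 11.00 in wild type, and Gfap, which marks reactive glia and astrocytes, at 9.33 to 10.04 in Norrin KO and 7.71 to 9.0 in wild type. The part of these glial shifts, and of the wider 3′ to 5′ gap and low Xist of the Norrin KO arrays, in the 2 lower genes was not tested.

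Between mutants, Norrin KO and Lrp5 KO had the most members past the test. Norrin KO was lower than Lrp5 KO for 7 of the 33 members (2.43% of all genes) and higher for none (9.50%). These were the cone genes Gnb3, Arr3, Opn1sw and Opn1mw, with differences of -1.45 ± 0.41, -2.09 ± 0.51, -1.99 ± 0.47 and -1.05 ± 0.27, and Rom1, Neurod4 and Isl1, with -0.85 ± 0.21, -3.52 ± 0.52 and -2.82 ± 0.43 (limma adjusted p 0.00208 to 0.0377). No rod gene was among them. Second probe sets did not pass for Opn1sw (0.02 ± 0.31, limma adjusted p = 0.980) and Isl1 (-0.54 ± 0.36, adjusted p = 0.356), of the other probe sets of Arr3 and of Neurod4, 1 of 2 passed in each, and Gnb3, Opn1mw and Rom1 have 1 probe set each. The median difference was -1.05 for cone genes and -0.39 for rod genes, against 0.09 for all genes. The count was 2 without Lrp5 KO 1, 3 without Norrin KO 3, 2 (Neurod4 and Isl1) with wild type split in 2 sets of 3 arrays, 2 with only the arrays of these 2 groups, and 0 without the 3 arrays highest on the second principal component, where 28 genes in all were past the threshold.

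Fz4 KO was higher than Norrin KO for Isl1 (1.84 ± 0.43, limma adjusted p = 0.0406), 1 of 33 members against 0.896% of all genes, and no member was lower (1.43%). This call was lost when 1 of 11 arrays was left out (each Fz4 KO and each Norrin KO array, Lrp5 KO 2 and 3, and wild type 2, 5 and 6), with adjusted p up to 0.140 (without Fz4 KO 1). Between Fz4 KO and Lrp5 KO limma called 0 members, against 0.159% of all genes higher and 0.0660% lower in Fz4 KO. There, 8 of the 33 members had an unadjusted limma p under 0.05, as did 1668 of all 18194 genes. The median difference there was -0.45 for rod genes and -0.56 for cone genes.

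The remaining members gave no call against wild type. Of the shared genes, Pdc (phosducin, which binds transducin) was at 7.50 to 8.46 in Fz4 KO, 8.59 to 9.64 in Lrp5 KO, 7.04 to 8.65 in Norrin KO and 7.61 to 8.48 in wild type. Its Lrp5 KO arrays were above all wild-type arrays with an adjusted p just over the threshold (1.08 ± 0.34, limma adjusted p = 0.0501). Guca1a and Guca1b (activators of guanylate cyclase), Rp1 (an axoneme protein), Aipl1 (a phosphodiesterase chaperone) and Tulp1 (a transport protein) had differences between -0.41 and 1.06 over the 3 mutants. Over all arrays, Prph2, the partner of Rom1 in disc rims, stayed between 2.82 and 3.88, Pde6a between 2.79 and 3.56, and Cngb3 between 2.38 and 2.88.

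A separate list of 28 other photoreceptor genes gave 2 higher and 2 lower in the mean of the mutants, with a median of 0.16. Over all genes, 14.0% were higher and 9.91% lower, so this list was called no more often than genes in general. Prdm1, a transcriptional repressor that favours photoreceptor over bipolar fate, was at 11.70 to 11.77 in Fz4 KO, 11.33 to 11.53 in Lrp5 KO, 10.71 to 11.00 in Norrin KO and 8.63 to 9.62 in wild type. Rgs9, which shuts off transducin, was at 7.26 to 7.47 in Fz4 KO, 6.36 to 6.58 in Lrp5 KO, 7.14 to 7.54 in Norrin KO and 4.68 to 5.69 in wild type. Every mutant array was above every wild-type array in both genes. Which cells gave the Prdm1 and Rgs9 signals was not tested. Prom1, a membrane protein of outer segments and of other cell types, was at 9.51 to 9.85 in Fz4 KO, 9.87 to 10.60 in Lrp5 KO, 9.88 to 10.51 in Norrin KO and 12.65 to 12.91 in wild type. Elovl4, which elongates fatty acids, also fell in the mean of the mutants (-1.38 ± 0.20, limma adjusted p = 0.000112). Its Lrp5 KO arrays (6.49 to 7.17) overlapped the wild-type arrays (7.0 to 8.44). Those of Fz4 KO (5.99 to 6.39) and Norrin KO (5.63 to 6.24) lay below wild type. Of this list Fz4 KO 2 was lowest of its group for 16 genes (57.1%) and Norrin KO 3 for 14 of 28, against 36.5% and 29.2% of all genes.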

How the data were processed

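The values are the log2 signals deposited by the authors, for which the submitters' processing notes name RMA, for 45101 probe sets on 15 Affymetrix arrays. RMA background-corrects, quantile normalizes and summarizes probes. Version and settings were not given in the sources used here. Of the probe sets, 34958 carried exactly 1 symbol in the platform table, and each of 18194 genes was represented by its brightest probe set (mean of the 15 arrays). No filter was applied. Values of further probe sets of a gene come from a fit of all probe sets, adjusted over them. All arrays were fitted with 4 group means in limma 3.58.1 (R 4.3.3, lmFit, contrasts.fit, eBayes), with Benjamini-Hochberg adjustment over the 18194 genes and a threshold of 0.05. Differences are mutant minus wild type. P-values measure the spread between pools, whose independence the labels do not state. No 2 arrays held identical values.

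The members and lists were chosen with earlier results of these data known. All members are accounted for by class, and array values are given for a fixed set of 14 members and for those past the threshold. The alternatives tried were renormalization, median centring, a filter on dim genes, other probe set rules, trend and robust eBayes, only the groups compared, the replicate number as a block and each array left out. Replicate numbers 4 to 6 occurred only in wild type. With that number as a block, mutants were therefore compared with wild type 1 to 3 alone. Same-numbered arrays did not pair over all groups (deviations correlated at -0.238 to 0.381), but Fz4 KO 1 to 3 matched wild type 1 to 3, and Lrp5 KO 1 to 3 matched wild type 4 to 6, as given above. Fits with this split and with these pairs as a block (12 arrays, without Norrin KO) were added after the data were seen. In data simulated for Fz4 KO against wild type over 18194 genes, 59 of 100 genes changed by 1 on the log2 scale and 95 of 100 changed by 2 were recovered, and 5 of 17994 unchanged genes were called. That simulation drew noise independently for each gene and array. The real arrays have spread shared by the members and matched arrays, so these rates need not hold for them. Promoter sequences are from RefSeq (GRCm38.p6).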

Additional observations from a re-analysis of the deposited data

Results flagged for a closer look

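Several member results stood out by a fixed rule. In the wild-type group, 1 array lay far from the other 5 for each of 4 genes by Dixon's test at the 95% level: wild type 3 for Pde6a (2.79, low) and Rp1 (6.77, high), wild type 6 for Gnat2 (4.45, low) and wild type 2 for Gnb3 (4.33, low). Chance gives about 1 such group in 20, and 33 groups were tested.

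Between mutants, the difference from wild type was itself tested as the contrast of the 2 mutants. Isl1 was 1.84 higher in Fz4 KO than in Norrin KO. Norrin KO was lower than Lrp5 KO for Gnb3 (-1.45), Arr3 (-2.09), Opn1sw (-1.99), Opn1mw (-1.05), Rom1 (-0.85), Neurod4 (-3.52) and Isl1 (-2.82). For Neurod4 and Isl1 the contrast with Lrp5 KO passed on leaving out each of the 15 arrays in turn, while without the 3 arrays highest on the second principal component neither passed (adjusted p of 0.0708 for Neurod4 and 0.101 for Isl1).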

How the results depend on the processing

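With each array left out in turn, the number of members past the threshold ran from 4 to 12 for the mean of the mutants, 2 to 3 for Fz4 KO, 3 to 13 for Lrp5 KO and 5 to 8 for Norrin KO. It ran from 0 to 0 for Fz4 KO against Lrp5 KO, 0 to 1 for Fz4 KO against Norrin KO and 2 to 10 for Norrin KO against Lrp5 KO. For the other photoreceptor genes it ran from 4 to 6 for the mean of the mutants, 4 to 5 in Fz4 KO, 3 to 5 in Lrp5 KO (5 without wild type 4) and 4 to 6 in Norrin KO. The median differences of rod and cone genes stayed at 0.48 to 0.85 and 0.34 to 0.56. Shares over all genes are not given for the fits in this section, so the counts describe these lists only.

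With only genes above the median gene, 6 members were left and the counts were 1 for the mean of the mutants, 1 in Fz4 KO, 3 in Lrp5 KO, 2 in Norrin KO and 2 for Norrin KO against Lrp5 KO. The other photoreceptor genes then gave 2 for the mean of the mutants and 2 in Norrin KO. No cone gene was left, so that setting gives no cone median. With only the arrays of the groups compared, the count was 2 for Norrin KO against Lrp5 KO and 0 for Fz4 KO against Norrin KO, and this setting gives no value for the mean of the mutants. With the replicate number as a block it was 5 in Lrp5 KO and 0 for Fz4 KO against Norrin KO. Only wild-type arrays sharing a number with mutant arrays enter that setting, so blocking and fewer arrays are not separated. Fz4 KO against Norrin KO gave 2 after quantile normalization again, 0 with the mean of all probe sets and 2 without probe sets ending in _x_at or _s_at.

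Alternatives chosen after seeing the data were leaving out Lrp5 KO 1, Lrp5 KO 3 and wild type 4, each probe set on its own, and a split of wild type by matched spike controls. The first gave 3 in Lrp5 KO and 0 for Norrin KO against Lrp5 KO, and the split gave 3 and 2. A further alternative, matched arrays as a block, gave 11 in Lrp5 KO and 3 in Fz4 KO (Gnat1, Gngt2 and Gnb3), and 0 for Fz4 KO against Lrp5 KO. Of 19 values from other probe sets of called members, 2 had the opposite sign: Rbp3 in Lrp5 KO (-0.351) and Opn1sw for Norrin KO against Lrp5 KO (0.016). Over all members and comparisons, called or not, 33 of 119 values from other probe sets had the opposite sign. Under the other settings, 0 of 733 called values and 65 of 2525 uncalled values of named members changed sign. The causes of these changes were not tested, beyond fewer genes or arrays entering the fit. Dim members, with signals below the array median throughout, limit the calls.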

Other observations

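Markers of other retinal cells gave mixed values. In Norrin KO, 2 of 9 pigment epithelium markers were higher and none lower (median 0.21), and in Fz4 KO none was higher and 1 lower (median -0.63). The shares over all genes were 16.7% higher and 9.13% lower in Norrin KO, and 10.7% and 6.08% in Fz4 KO. Markers with negative differences in Norrin KO that did not pass the test included Pou4f1 of ganglion cells (5.87 to 6.88 in Norrin KO and 6.07 to 10.08 in wild type), Gng13 of bipolar cells (4.60 to 5.81 in Norrin KO and 5.58 to 6.17 in wild type), and the pigment epithelium genes Lrat (3.94 to 4.52 in Norrin KO and 4.57 to 5.93 in wild type) and Tyr (3.47 to 4.41 in Norrin KO and 4.73 to 7.52 in wild type). The markers named next were chosen after their values were seen, as those with large positive differences. Thy1, a surface protein of ganglion cells and of several other cell types, had a log2 signal of 9.30 to 9.49 in Fz4 KO, 8.38 to 8.64 in Lrp5 KO, 10.33 to 10.84 in Norrin KO and 4.59 to 5.65 in wild type. Car8, a carbonic anhydrase-related protein of bipolar cells, was at 7.32 to 8.39 in Fz4 KO, 6.28 to 7.76 in Lrp5 KO, 6.54 to 8.0 in Norrin KO and 3.26 to 4.66 in wild type. Trpm1, the channel of ON bipolar cells that is also made by pigment cells, was at 4.45 to 5.05 in Fz4 KO, 5.35 to 6.42 in Lrp5 KO, 6.38 to 7.21 in Norrin KO and 4.09 to 4.53 in wild type. Tyrp1, a pigment cell enzyme, was at 3.89 to 4.71 in Fz4 KO, 5.05 to 5.55 in Lrp5 KO, 6.01 to 7.81 in Norrin KO and 4.15 to 4.94 in wild type.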
